A study of Mus musculus with 4 samples.

Results

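The genes described here are 6 transcription factors whose messenger RNA is induced when the T cell receptor is engaged: Nr4a1, Nr4a2 and Nr4a3 of the Nr4a family, and Egr1, Egr2 and Egr3 of the Egr family. They were taken by name, not by a measured value, and all 6 were found among the 27998 genes of both messenger RNA libraries. Their levels were followed across Cd4-gated, Foxp3-positive and Cd8-gated T cells, across expanded and single clones, and across the 2 ages of the study.

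Islet T cells were taken from female mice of the NOD strain, in which autoimmune diabetes arises spontaneously, at 16 and at 8 weeks of age, with the animals still pre-diabetic at both ages. Cells were sorted as live cells, with DAPI marking the dead ones, that bound an antibody to the T cell receptor beta chain. Each age had 1 messenger RNA library and 1 receptor library, 4 libraries in all. No gene was altered and no agent was given at either age, per the labels, which do not say how many mice were pooled. With 1 library per age there was no replicate check, so no p-value is given, and a difference between the ages compares those 2 libraries.

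The 16-week library held 2107 barcodes and 8183747 UMIs (unique molecular identifiers, each standing for 1 captured RNA molecule), and the 8-week library 2043 barcodes and 8659371 UMIs. After filtering, 1913 and 1849 T cells were kept at 16 and 8 weeks, with medians of 2927 and 2958 UMIs per cell, and the libraries shared 5 barcodes among the kept cells. Classes were set by UMIs of Foxp3, Cd8a, Cd8b1 and Cd4 alone. Foxp3-positive Cd4-gated cells numbered 93 at 16 weeks and 115 at 8 weeks, Cd8-gated cells 315 and 291, and conventional Cd4-gated cells, without a Foxp3 UMI, 647 and 653. The other 858 and 790 cells had UMIs of neither lineage or of both and entered no class. The class names were checked on genes that the gates did not use. In Foxp3-positive against conventional cells, Il2ra, a receptor chain for interleukin 2, had 76.0 against 15.4 CPM at 16 weeks and 105 against 20.8 CPM at 8 weeks, where CPM is a gene's UMIs over all UMIs of the class on the counts-per-million scale. Ccl5, a chemokine of cytotoxic T cells, had 4843 CPM in Cd8-gated and 746 CPM in conventional cells at 16 weeks, and 4815 and 337 CPM at 8 weeks. In Foxp3-positive cells it had 1603 and 765 CPM at 16 and 8 weeks, above the conventional class. Ccl5 was therefore highest in Cd8-gated cells but not confined to them.

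Nr4a proteins are orphan nuclear receptors that bind DNA without a known natural ligand, and Egr proteins are zinc finger factors. Both families belong to the immediate early genes: their transcription starts without new protein synthesis after receptor engagement. Their RNA is also short-lived and is read as a trace of recent signalling. Calcium and protein kinase signals reach the Nr4a genes in part through factors bound at cAMP response elements, and the Egr genes through the mitogen-activated kinase pathway and serum response factor. Nr4a1, known as Nur77, is used in reporter mice to mark T cells that have met antigen. Nr4a factors act in thymic deletion, in the upkeep of regulatory T cells and in the hyporesponsive states of exhausted T cells. Egr2 and Egr3 restrain T cell activation and are known from anergy, while Egr1 is induced by growth and stress signals in many cell types.

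Nr4a1 lies on mouse chromosome 15 (GRCm38, 101254269 to 101274795, plus strand), Nr4a2 on chromosome 2 (57106830 to 57124003, minus strand) and Nr4a3 on chromosome 4 (48045153 to 48086447, plus strand). Egr2 lies on chromosome 10 (67535475 to 67542188, plus strand) and Egr3 on chromosome 14 (70077203 to 70082614, plus strand). The sequences just upstream of the start of 4 of them are printed because the response element named above can be read in them. The core of the cAMP response element is in capitals, TGACG or, on the other strand, CGTCA. The sequences are RefSeq's for GRCm38.p6, 5′ to 3′ on the gene's strand, and end at the base before the start of the gene's principal transcript, which for Nr4a1 and Egr2 lies inside the outer bounds of the gene: chr15:101266596-101266845 (plus) for Nr4a1, chr2:57124004-57124253 (minus) for Nr4a2, chr4:48045055-48045152 (plus) for Nr4a3 and chr10:67537619-67537868 (plus) for Egr2.
Nr4a1: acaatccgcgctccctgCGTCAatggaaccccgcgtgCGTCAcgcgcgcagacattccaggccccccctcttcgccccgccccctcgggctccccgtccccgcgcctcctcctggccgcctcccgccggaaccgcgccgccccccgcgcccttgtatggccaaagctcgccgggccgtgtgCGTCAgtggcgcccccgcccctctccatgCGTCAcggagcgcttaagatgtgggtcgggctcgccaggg
Nr4a2: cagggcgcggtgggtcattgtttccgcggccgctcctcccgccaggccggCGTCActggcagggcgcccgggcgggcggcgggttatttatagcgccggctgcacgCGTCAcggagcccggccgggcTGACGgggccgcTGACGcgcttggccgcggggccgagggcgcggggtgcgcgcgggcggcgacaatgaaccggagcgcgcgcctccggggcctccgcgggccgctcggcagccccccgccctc
Nr4a3: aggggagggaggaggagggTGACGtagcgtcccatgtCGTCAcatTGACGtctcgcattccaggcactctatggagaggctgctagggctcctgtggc
Egr2: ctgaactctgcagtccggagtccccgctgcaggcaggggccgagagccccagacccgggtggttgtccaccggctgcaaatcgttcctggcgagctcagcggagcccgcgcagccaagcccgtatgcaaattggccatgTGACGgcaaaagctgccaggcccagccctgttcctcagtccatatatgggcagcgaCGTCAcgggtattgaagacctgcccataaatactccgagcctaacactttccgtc

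In the windows of 300 bases from which these stretches were read, the core occurred 4 times in each of Nr4a1, Nr4a2 and Nr4a3 and 2 times in Egr2. Of the 4 in Nr4a3, 3 lie in the printed stretch of 98 bases and the other lies after it, past the start of the principal transcript. Of 32851 mouse promoter windows of that length, chromosome 18 left out, 20.8% held the core at least 1 time. At least 2 times it was in 5.01%, and at least 4 times in 76 windows (0.231%). The letters of an AP-1 site, TGANTCA on either strand, which overlap no core, occurred in none of the 4 windows and in 7.81% of all windows. These are matches of letters, not measured binding. For Egr2, 1 of 5 windows is given above, the one at the start of its principal transcript. Windows for starts 1 and 61 bases from that start held the core 2 times each. Those for starts 303 and 2370 bases from it held the core 0 times.

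Nr4a1 was detected in every class at both ages, and its highest level was in Foxp3-positive cells. At 16 weeks it had 187 CPM in Foxp3-positive cells (130 UMIs, 95% counting interval 156 to 221), 106 CPM in Cd8-gated cells (138 UMIs) and 133 CPM in conventional cells (354 UMIs). At 8 weeks it had 314 CPM in Foxp3-positive cells (276 UMIs, 278 to 353), 86.6 CPM in Cd8-gated cells (116 UMIs) and 99.8 CPM in conventional cells (302 UMIs). The order of the classes was therefore Foxp3-positive, conventional, Cd8-gated at both ages, and the intervals of the conventional and Cd8-gated classes overlapped at both ages. The intervals cover counting error only. Since UMIs of 1 cell are not independent, they are narrower than the spread from cell to cell, which the per-cell values further on show.

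Nr4a2, which has a role in dopamine neurons and is induced with Nr4a1 in T cells, had another order, with its highest level in Cd8-gated cells. It had 54.0 CPM in Cd8-gated cells (70 UMIs), 40.2 CPM in Foxp3-positive cells (28 UMIs) and 28.6 CPM in conventional cells (76 UMIs) at 16 weeks. At 8 weeks it had 61.2 CPM in Cd8-gated cells (82 UMIs), 36.4 CPM in Foxp3-positive cells (32 UMIs) and 22.5 CPM in conventional cells (68 UMIs). Only the Cd8-gated and conventional classes had intervals apart from each other at both ages.

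Nr4a3, the least abundant of the Nr4a RNAs here, had 11.5 CPM in Foxp3-positive cells (8 UMIs), 14.6 CPM in Cd8-gated cells (19 UMIs) and 18.8 CPM in conventional cells (50 UMIs) at 16 weeks. At 8 weeks it had 25.0 CPM (22 UMIs), 7.47 CPM (10 UMIs) and 9.58 CPM (29 UMIs) in the same classes. The order of its classes differed between the ages, and at 16 weeks the intervals of all 3 classes overlapped.

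Egr1, on chromosome 18 (34859823 to 34864984, plus strand), had 60.3 CPM in Foxp3-positive cells (42 UMIs), 43.9 CPM in Cd8-gated cells (57 UMIs) and 61.0 CPM in conventional cells (162 UMIs) at 16 weeks. At 8 weeks it had 61.4 CPM in Foxp3-positive cells (54 UMIs), 54.5 CPM in Cd8-gated cells (73 UMIs) and 51.5 CPM in conventional cells (156 UMIs). The intervals of the 3 classes overlapped within each age. Egr2 ranged from 12.3 CPM in Cd8-gated cells at 16 weeks (16 UMIs) to 23.2 CPM in Cd8-gated cells at 8 weeks (31 UMIs), with Foxp3-positive cells at 14.3 and 12.5 CPM and conventional cells at 19.2 and 17.5 CPM at 16 and 8 weeks. Egr3 was near the limit of detection: 5 UMIs in 1913 T cells at 16 weeks and 9 UMIs in 1849 at 8 weeks, with 0 to 2 UMIs in any class, so no comparison of it is made.

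**Figure D1:**
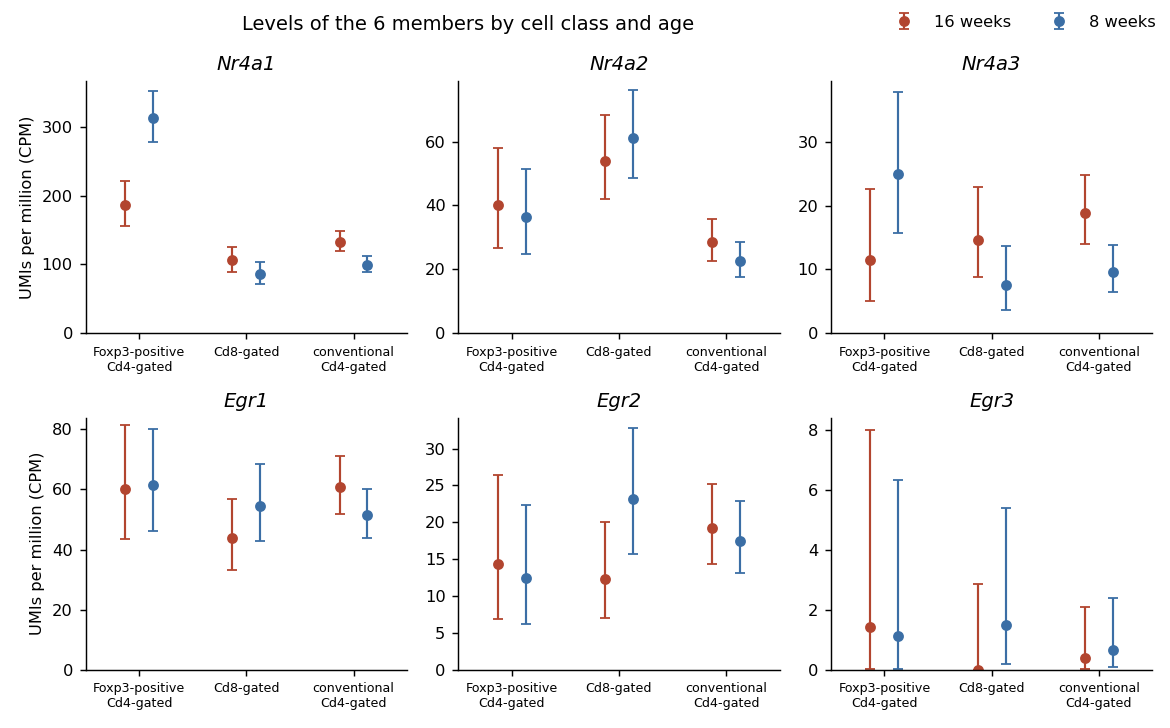
Level of each gene in CPM (y axis, a scale of its own in each panel) in the 3 cell classes (x axis) at 16 weeks (red) and 8 weeks (blue). Points are levels over the summed UMIs of a class and bars are 95% Poisson counting intervals. Nr4a1 is highest in Foxp3-positive cells (187 and 314 CPM at 16 and 8 weeks) and Nr4a2 in Cd8-gated cells (54.0 and 61.2 CPM).

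The levels were carried by a minority of cells. With each cell thinned to 1700 UMIs, so that depth was equal, and shallower cells left out, at least 1 of the 6 RNAs was seen in 27.5% of 91 Foxp3-positive cells, 23.3% of 301 Cd8-gated cells and 21.7% of 621 conventional cells at 16 weeks. At 8 weeks the shares were 26.2% of 107, 21.4% of 281 and 16.6% of 602 cells. Nr4a1 was seen in 17.6%, 12.3% and 12.7% of Foxp3-positive, Cd8-gated and conventional cells at 16 weeks, and in 15.0%, 9.25% and 8.47% at 8 weeks. Egr1 was seen in 8.79%, 5.32% and 7.41% of these classes at 16 weeks and in 9.35%, 7.12% and 5.98% at 8 weeks. A UMI can also come from free RNA in the droplets. The digestive enzyme gene Prss2, which T cells do not make, was seen in 1.98% and 1.38% of thinned T cells at 16 and 8 weeks, and the insulin gene Ins2 in 0.453% and 0.360%. The shares of Nr4a3 (1.87% and 1.38% of T cells at 16 and 8 weeks) and Egr3 (0.113% and 0.120%) were no higher than that of Prss2, so the share of cells alone does not set either RNA apart from free RNA, a limit on the Nr4a3 values in every comparison given here. Those of Nr4a1, Nr4a2 and Egr1 were above it (13.8% and 11.0%, 4.19% and 3.54%, 7.37% and 7.67%), and that of Egr2 lay close to it (2.27% and 2.40%). Barcodes with under 500 genes had 30.7 and 65.6 CPM of the Nr4a family at 16 and 8 weeks, against 186 and 190 CPM in all T cells.

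**Figure D2:**
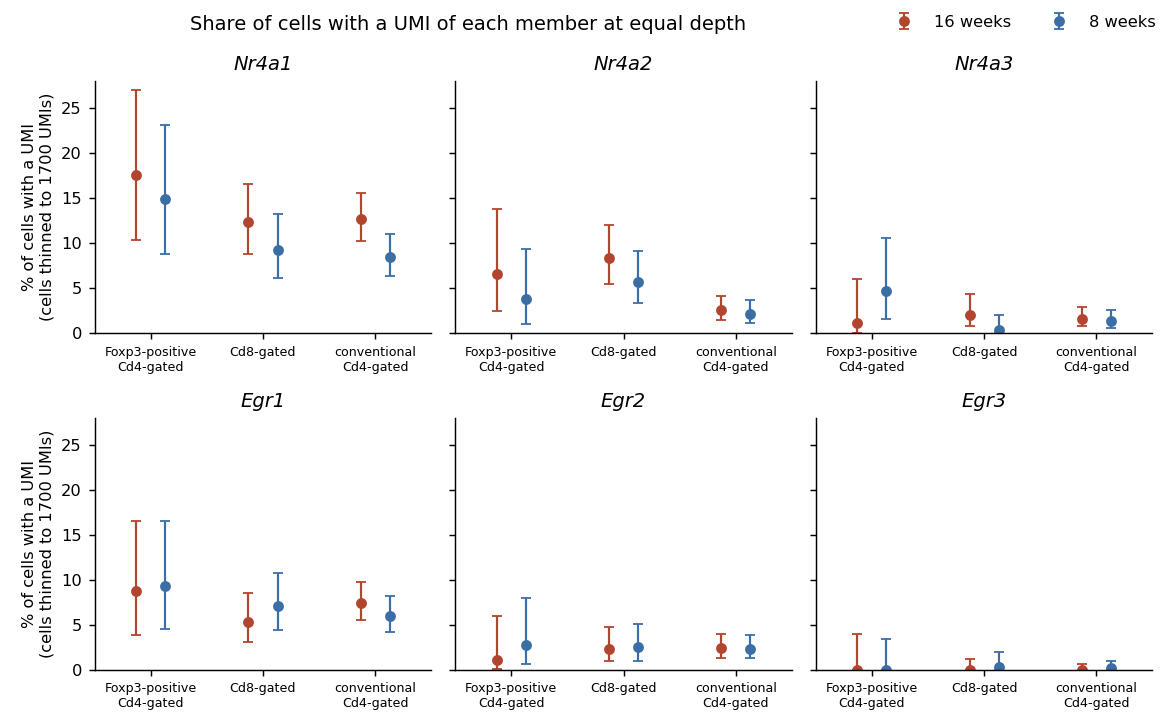
Share of cells with at least 1 UMI of each gene, in percent (y axis), after each cell was thinned to 1700 UMIs, in the 3 cell classes (x axis) at 16 weeks (red) and 8 weeks (blue). Bars are Clopper-Pearson 95% intervals. Nr4a1 was seen in 8.47% to 17.6% of the cells of a class.

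The first comparison asked whether the factors differed between the later and the earlier age. In conventional Cd4-gated cells the Nr4a family had 181 CPM at 16 weeks and 132 CPM at 8 weeks, a log2 ratio of 0.45 (95% counting interval 0.26 to 0.65). Nr4a1 had a log2 ratio of 0.42 (0.19 to 0.64), and Nr4a3 of 0.96 (0.29 to 1.69) on 50 and 29 UMIs. The intervals of Nr4a2 (0.35), Egr1 (0.24), Egr2 (0.13) and the Egr family (80.5 against 69.7 CPM, 0.21) included 0. In thinned cells Nr4a1 was seen in 79 of 621 conventional cells at 16 weeks and in 51 of 602 at 8 weeks, a difference of 4.25 percentage points (0.79 to 7.72), while at 1000 UMIs per cell it was 1.58 points (-1.40 to 4.58). Of the 5 members with 20 or more UMIs in these cells, Nr4a3 alone was past 1.5-fold, and it was higher at 16 weeks. Among all 9260 such genes 5.82% were past 1.5-fold higher and 6.79% past it lower, with a median log2 ratio of -0.05. Over all kept T cells, the ungated ones included, the Nr4a family level given above was not higher at 16 weeks. The higher level therefore holds for the gated conventional class, not for islet T cells as a whole.

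Foxp3-positive cells had the opposite sign for Nr4a1. Its level was 187 CPM at 16 weeks and 314 CPM at 8 weeks, a log2 ratio of -0.75 (-1.06 to -0.44), and the Nr4a family had 238 and 375 CPM (-0.65, -0.93 to -0.38). Nr4a3 had 8 UMIs at 16 weeks and 22 at 8 weeks, a log2 ratio of -1.07 with an interval of -2.50 to 0.10. Egr1 (-0.02), Egr2 (0.21) and the Egr family (76.0 against 75.0 CPM, 0.02) lay near 0. So 2 of the 5 measured members, Nr4a1 and Nr4a3, were past 1.5-fold lower and 0 higher, where 10.1% of 6667 genes were past it higher and 9.25% lower. The share of cells did not follow the level: Nr4a1 was seen in 16 of 91 thinned Foxp3-positive cells at 16 weeks and in 16 of 107 at 8 weeks, a difference of 2.63 points (-7.63 to 13.3), and at 1000 UMIs the difference was -3.57 points (-13.3 to 6.76).

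The Foxp3-positive difference sat in a few cells with many Nr4a1 UMIs. At 16 weeks 2 of 93 cells had 10 or more Nr4a1 UMIs and carried 18.5% of them, and the highest cell had 14. At 8 weeks 6 of 115 cells had 10 or more and carried 52.9%, and the highest cell had 55, which was 19.9% of the class total. Cells with 2 to 4 UMIs numbered 25 at 16 weeks and 15 at 8 weeks. Without the highest cell of each group, Nr4a1 was at 168 CPM in the 16-week and 259 CPM in the 8-week cells. The Nr4a family ratio without its highest cells was -0.54. With every cell given equal weight it was -0.35. Cells with 2 or more productive beta chains, which can be droplets with more than 1 cell, made up 33 of the 93 Foxp3-positive cells at 16 weeks (35.5%) and 31 of the 115 at 8 weeks (27.0%). Without them the Nr4a family ratio was -1.02. In conventional cells the UMIs were spread more alike at both ages, since cells with 5 or more Nr4a1 UMIs carried 38.1% of them at 16 weeks (17 cells) and 43.0% at 8 weeks (16 cells).

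**Figure D3:**
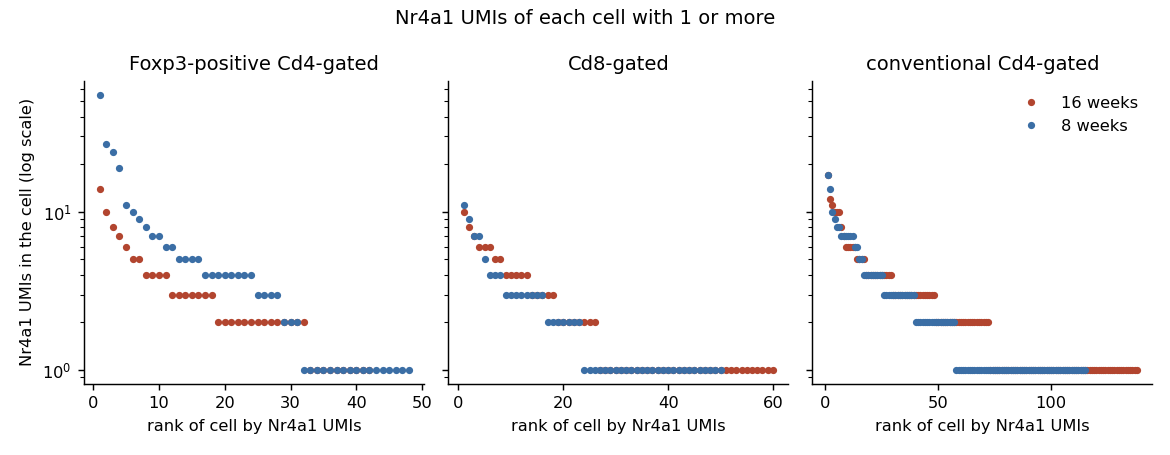
Nr4a1 UMIs in each cell that had at least 1 (y axis, log scale), with cells ranked from the highest (x axis), at 16 weeks (red) and 8 weeks (blue) in the 3 cell classes. In Foxp3-positive cells the highest cell had 14 UMIs at 16 weeks and 55 at 8 weeks.

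In Cd8-gated cells the Nr4a family had 175 CPM at 16 weeks and 155 CPM at 8 weeks (log2 ratio 0.17, -0.11 to 0.45). Nr4a1 (0.29), Nr4a2 (-0.18) and Egr1 (-0.31) had intervals that included 0. Nr4a3 was past 1.5-fold higher on 19 and 10 UMIs (0.94, -0.21 to 2.24), and Egr2 past 1.5-fold lower on 16 and 31 UMIs (-0.89, -1.88 to 0.01). The Egr family had 56.3 CPM at 16 weeks and 79.2 CPM at 8 weeks, with a log2 ratio of -0.49 (-0.94 to -0.05). Past 1.5-fold lay 6.45% of 7632 genes on the higher side and 8.73% on the lower. With equal weight for every cell the Nr4a family ratio was 0.70, so its size depended on how cells were weighted.

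**Figure D4:**
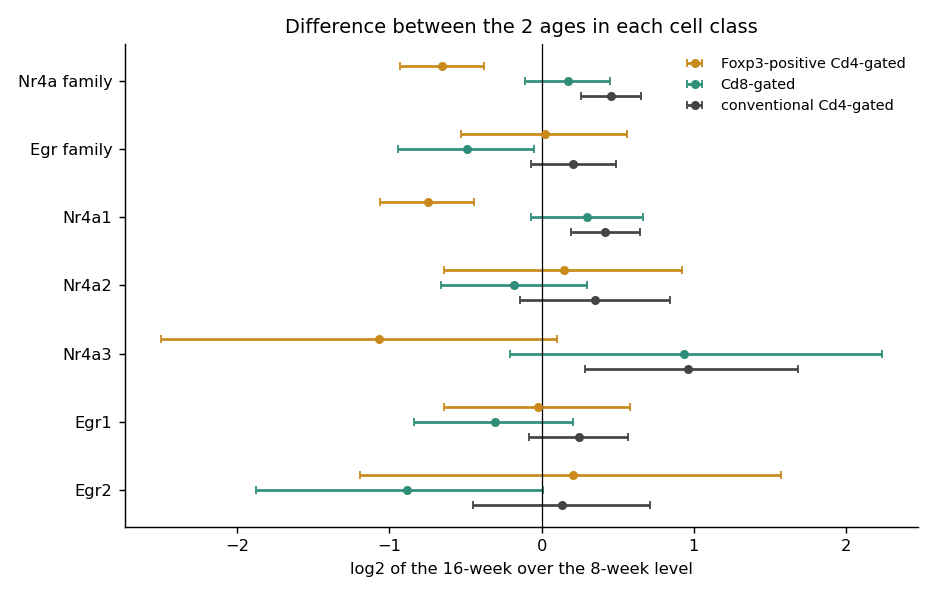
Log2 ratio of the 16-week over the 8-week level (x axis) for the families and for each gene except Egr3 (y axis) in Foxp3-positive (orange), Cd8-gated (green) and conventional (grey) cells. Bars are exact 95% counting intervals. The Nr4a family ratio is -0.65 in Foxp3-positive cells and 0.45 in conventional cells.

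Other immediate early genes were read beside the members. Of the AP-1 and immediate early list, 5 of 12 measured genes were past 1.5-fold higher at 16 weeks in Foxp3-positive cells, 3 of 12 in Cd8-gated cells and 5 of 13 in conventional cells, with 0 lower in any class and medians of 0.46, 0.42 and 0.45. Over all genes 10.1%, 6.45% and 5.82% were past it higher in these classes and 9.25%, 8.73% and 6.79% lower. Fos, a subunit of AP-1, had 534 CPM at 16 weeks and 286 CPM at 8 weeks in Foxp3-positive cells, and 556 and 302 CPM in Cd8-gated cells. Jun, its partner, had 627 and 402 CPM in conventional cells, and Klf6, a zinc finger factor, 374 and 159 CPM in Foxp3-positive cells. The Foxp3-positive class was therefore the one in which Nr4a1 and the AP-1 genes had opposite signs between the ages. That contrast was not tested. Of the heat shock and handling stress list, 4 of 14, 4 of 14 and 3 of 14 genes were past 1.5-fold higher in Foxp3-positive, Cd8-gated and conventional cells and 1, 0 and 0 lower, with medians of 0.29, 0.35 and 0.34. Handling itself was not measured. Dnajb1, a co-chaperone, had 522 and 282 CPM at 16 and 8 weeks in Foxp3-positive cells. Summed RNA of 15 acinar genes, of which 13 to 15 were above 0 in each class, was also higher at 16 weeks: 217 against 136 CPM in Foxp3-positive cells, 108 against 71.0 CPM in Cd8-gated cells and 132 against 85.9 CPM in conventional cells. Their part in the differences between the ages was not tested.

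The brakes on receptor signalling, a list of phosphatases, inhibitors of NF-kappaB and related genes, had 6 of 27 measured members past 1.5-fold higher and 1 lower in Foxp3-positive cells, 3 and 2 of 27 in Cd8-gated cells and 4 and 0 of 28 in conventional cells. Their medians were 0.30, 0.02 and 0.12. Over all genes 10.1% were past 1.5-fold higher and 9.25% lower in Foxp3-positive cells. These shares were 6.45% and 8.73% in Cd8-gated cells and 5.82% and 6.79% in conventional cells. Dusp1, a phosphatase that inactivates mitogen-activated kinases, had 411 CPM at 16 weeks and 218 CPM at 8 weeks in conventional cells, and 258 and 138 CPM in Cd8-gated cells. Tnfaip3, an inhibitor of NF-kappaB, had 199 and 101 CPM in Foxp3-positive cells. Of the receptor-induced regulators and surface proteins, 2 of 33 genes were past 1.5-fold higher and 2 lower in Foxp3-positive cells, 3 and 7 of 33 in Cd8-gated cells and 6 and 3 of 35 in conventional cells, with medians of -0.09, -0.29 and -0.03. Those of Foxp3-positive cells were not above the shares over all genes. Irf8, a factor of the interferon regulatory family, was lower at 16 weeks in Foxp3-positive cells, with 31.6 against 107 CPM. Tigit, an inhibitory receptor, had 57.0 CPM at 16 weeks and 142 CPM at 8 weeks in Cd8-gated cells. In conventional cells the chemokine Ccl3 had 56.1 and 11.9 CPM and the chemokine Xcl1 12.0 and 36.7 CPM at 16 and 8 weeks. Of the genes of the receptor complex and proximal signalling, 1 of 19 was past 1.5-fold higher in Foxp3-positive cells, and 0 of 20 and 0 of 19 in Cd8-gated and conventional cells.

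Within each library, Foxp3-positive cells were then set against conventional cells, which keeps differences between libraries out. At 16 weeks the Nr4a family had 238 CPM in Foxp3-positive and 181 CPM in conventional cells (log2 ratio 0.40, 0.14 to 0.66), with Nr4a1 at 0.49 (0.18 to 0.78). Nr4a2 (0.51), Nr4a3 (-0.64), Egr1 (-0.004), Egr2 (-0.36) and the Egr family (-0.07) had intervals that included 0. Of 5 measured members 0 were past 1.5-fold higher and 1, Nr4a3, lower, where 16.1% of 8361 genes were higher and 8.09% lower. At 8 weeks the family had 375 CPM in Foxp3-positive and 132 CPM in conventional cells (1.51, 1.29 to 1.72). Nr4a1 (1.65), Nr4a2 (0.71) and Nr4a3 (1.39) were each past 1.5-fold higher with intervals above 0, while Egr1 (0.26) and Egr2 (-0.44) were not past it. These 3 of 5 members stood beside 13.4% of 8696 genes past 1.5-fold higher and 9.53% lower.

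Shares of cells were read beside the levels. At equal depth Nr4a1 was seen in 17.6% of Foxp3-positive and 12.7% of conventional cells at 16 weeks (difference 4.86 points, -2.20 to 14.3), and in 15.0% and 8.47% at 8 weeks (6.48 points, 0.41 to 14.7). Foxp3-positive cells were deeper, with medians of 6003 and 5848 UMIs at 16 and 8 weeks against 3051 and 3183 UMIs in conventional cells. They also more often had 2 or more productive beta chains, 35.5% and 27.0% of cells against 12.98% and 8.88%. At 16 weeks Foxp3-positive cells with 2 or more beta chains had 341 CPM of the Nr4a family and those with 1 had 165 CPM. Without the cells with 2 or more beta chains the 16-week family ratio was 0.05 (-0.37 to 0.43), so the difference ended there, and the 8-week ratio was 1.35. Since 1 Foxp3 UMI is often missed, some regulatory T cells remain in the conventional class. With Ikzf2- or Il2ra-positive cells removed from that class, the family ratios were 0.69 and 1.82 at 16 and 8 weeks.

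Receptor-induced regulators and surface proteins, which include the hallmark genes of regulatory T cells, were more often higher in Foxp3-positive cells: 14 of 34 past 1.5-fold higher and 3 lower at 16 weeks, and 15 and 4 of 34 at 8 weeks, with medians of 0.36 and 0.43 against 0.12 and 0.07 over all genes. Of all genes 16.1% were past it higher and 8.09% lower at 16 weeks, and 13.4% and 9.53% at 8 weeks. Tnfrsf9, the costimulatory receptor 4-1BB, had 191 CPM in Foxp3-positive and 41.8 CPM in conventional cells at 16 weeks. Ctla4, an inhibitory receptor, had 540 and 126 CPM in these classes at 8 weeks. Of the brakes, 11 of 28 were past 1.5-fold higher and 2 lower at 16 weeks, and 12 and 4 of 28 at 8 weeks. Among phosphatases of mitogen-activated kinases, Dusp4 had 70.3 CPM in Foxp3-positive and 23.0 CPM in conventional cells at 16 weeks, and Dusp5 51.1 and 13.2 CPM at 8 weeks. The AP-1 and immediate early list had 4 of 12 and 2 of 12 genes past 1.5-fold higher and 0 lower. Genes of the receptor complex had 0 of 19 higher at either age and 3 and 4 of 19 lower, among them Themis, a receptor signalling adaptor, with 35.9 against 70.4 CPM at 16 weeks. Cd4, which made the gate of both classes, was among the genes lower at 8 weeks (248 against 411 CPM). Acinar RNA was higher in Foxp3-positive cells too (217 against 132 CPM at 16 weeks, 136 against 85.9 CPM at 8 weeks), and its part was not tested.

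Between Cd8-gated and conventional Cd4-gated cells, Nr4a2 was the member whose interval lay apart from 0 at both ages. The conventional cells are the ones Foxp3-positive cells were set against. At 16 weeks it had 54.0 CPM in Cd8-gated and 28.6 CPM in conventional cells (log2 ratio 0.92, 0.43 to 1.40), and at 8 weeks 61.2 and 22.5 CPM (1.45, 0.97 to 1.93). At equal depth Nr4a2 was seen in 8.31% of Cd8-gated and 2.58% of conventional cells at 16 weeks, 5.73 points more (2.68 to 9.53), and in 5.69% and 2.16% at 8 weeks, 3.53 points more (0.91 to 7.01). Its highest single cell held 5 of 70 Cd8-gated UMIs at 16 weeks and 14 of 82 at 8 weeks. Across the alternatives its ratio stayed between 0.63 and 1.41 at 16 weeks and between 1.04 and 1.72 at 8 weeks.

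The other members did not share this pattern. Nr4a1 was lower in Cd8-gated cells at 16 weeks (-0.32, -0.62 to -0.04), although with equal weight for every cell the ratio was 0.014, and its 8-week interval included 0 (-0.20). Egr1 had ratios of -0.46 (-0.93 to -0.03) and 0.09, and Egr2 of -0.61 and 0.41, at 16 and 8 weeks. The Nr4a family as a whole had 175 CPM in Cd8-gated and 181 CPM in conventional cells at 16 weeks (-0.04), and 155 and 132 CPM at 8 weeks (0.24). The Egr family had 56.3 CPM in Cd8-gated and 80.5 CPM in conventional cells at 16 weeks (-0.51, -0.92 to -0.13), and 79.2 and 69.7 CPM at 8 weeks (0.19, -0.17 to 0.53). At 16 weeks 1 of 5 measured members (Nr4a2) was past 1.5-fold higher and 1 (Egr2) lower, where 6.95% and 12.2% of 8593 genes were. At 8 weeks 1 of 5 was higher and 0 lower, where 7.54% and 11.8% of 8852 genes were.

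Receptor-induced regulators and surface proteins were more often lower in Cd8-gated cells, with 4 of 34 past 1.5-fold higher and 15 lower at 16 weeks and 7 and 12 of 35 at 8 weeks. Of all genes 6.95% were past it higher and 12.2% lower at 16 weeks, and 7.54% and 11.8% at 8 weeks. Cd40lg, the CD40 ligand of helper T cells, had 7.71 CPM in Cd8-gated and 143 CPM in conventional cells at 16 weeks, and Il21, a helper cytokine, 3.08 and 59.5 CPM. Xcl1, a chemokine that attracts cross-presenting dendritic cells, had 126 and 12.0 CPM. Of the brakes, 1 of 28 was higher and 9 lower at 16 weeks, and 0 and 6 of 28 at 8 weeks, with Spry1, an inhibitor of kinase signalling, at 5.40 against 24.5 CPM at 16 weeks. In the AP-1 list only Ier3, an early response gene, was past 1.5-fold, with 50.9 CPM in Cd8-gated and 17.7 CPM in conventional cells at 16 weeks and 42.6 and 14.5 CPM at 8 weeks. The receptor complex list had 2 genes higher and 4 lower of 21 at both ages, but it holds Cd4, Cd8a and Cd8b1, which made the gates.

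Clones were read from the receptor libraries. A clone is a set of cells with the same alpha and beta V segments and CDR3 bases, and it is called expanded when it has 2 or more kept cells. A pair of chains was found in 1384 cells at 16 weeks and in 1348 at 8 weeks, of which 96 cells (37 clones, the largest of 7 cells) and 195 cells (64 clones, the largest of 14) were in expanded clones, and 1 receptor pair occurred at both ages. Cells of 1 clone share their origin and are not replicates.

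In conventional cells at 16 weeks, all 5 measured members were higher in expanded clones. The expanded group had 54 cells of 27 clones and the single group 446 cells. Nr4a1 had 233 CPM in expanded and 122 CPM in single cells (log2 ratio 0.94, 0.53 to 1.31), Nr4a2 74.6 and 21.4 CPM (1.81, 1.01 to 2.56), and Nr4a3 31.1 and 18.3 CPM (0.81, -0.42 to 1.81). Egr1 had 112 CPM in expanded and 53.3 CPM in single cells (1.08, 0.48 to 1.63), and Egr2 46.6 and 17.3 CPM (1.46, 0.45 to 2.35). The families had ratios of 1.07 (339 against 162 CPM, 0.73 to 1.38) for Nr4a and 1.203 (162 against 70.6 CPM, 0.70 to 1.67) for Egr. All 5 were past 1.5-fold higher, where 17.8% of 7307 genes were past it higher and 15% lower. At equal depth any member was seen in 37.7% of 53 expanded and 21.9% of 439 single cells, 15.9 points more (3.38 to 29.8), and Nr4a1 in 26.4% and 12.5%.

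Part of that level came from few cells. The highest expanded cell held 29 of 109 Nr4a UMIs and the highest for Egr held 18 of 52, and Nr4a2 had 14 of its 24 UMIs in 1 cell. With the highest cell of each group left out, the ratios were 0.75 for Nr4a and 0.72 for Egr. Nr4a2 without its highest cell was at 32.5 CPM in expanded cells. Without the largest clone the Nr4a ratio was 0.71. At 1000 UMIs per cell the difference in the share with any member was 6.30 points (-3.45 to 19.4). Expanded cells were deeper, with a median of 4760 UMIs against 3238 UMIs in single cells.

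At 8 weeks the differences were smaller. With 111 expanded cells of 51 clones and 391 single cells, the Nr4a family had 151 CPM in expanded and 123 CPM in single cells (0.30, -0.05 to 0.63), and the Egr family 83.7 and 57.9 CPM (0.54, 0.05 to 1.00). Nr4a1 (117 against 96.7 CPM, 0.28), Nr4a2 (22.9 against 20.8 CPM, 0.17) and Egr1 (58.0 against 44.8 CPM, 0.38) had intervals that included 0. Egr2 had 25.6 CPM in expanded and 12.6 CPM in single cells (1.04, 0.07 to 1.97). Nr4a3 had 8 and 11 UMIs, too few to be counted. Of 4 measured members 1, Egr2, was past 1.5-fold higher, where 12.6% of 7682 genes were higher and 10.2% lower. Any member was seen in 19.1% of 110 expanded and 16.6% of 367 single cells at equal depth. Between the ages, expanded conventional cells had 339 CPM of the Nr4a family at 16 weeks and 151 CPM at 8 weeks (1.16, 0.77 to 1.56), and single cells 162 and 123 CPM (0.39, 0.14 to 0.65). The difference between these 2 ratios was not tested. The expanded conventional cells also differed in Ccl5, with 2900 CPM at 16 weeks and 240 CPM at 8 weeks. Single cells had 526 and 356 CPM. The part of this difference in the Nr4a ratios was not tested.

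**Figure D5:**
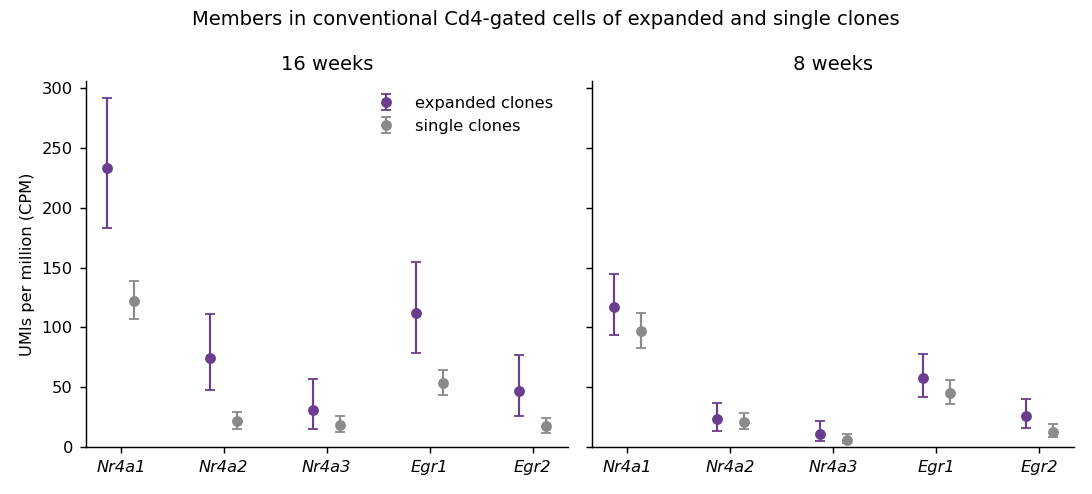
Level of each gene except Egr3 in CPM (y axis) in conventional Cd4-gated cells of expanded clones (purple) and single clones (grey), at 16 weeks (left) and 8 weeks (right). Bars are 95% Poisson counting intervals. At 16 weeks Nr4a1 had 233 CPM in expanded and 122 CPM in single cells.

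Clones differed among themselves. Conventional cells of clones with 5 or more cells had 655 CPM of the Nr4a family at 16 weeks (12 cells of 3 clones, 483 to 868) and 59.6 CPM at 8 weeks (37 cells of 8 clones, 31.7 to 102). Clones of 3 to 4 cells had 177 and 173 CPM, clones of 2 cells 281 and 201 CPM, and single cells 162 and 123 CPM at 16 and 8 weeks. The level therefore did not follow clone size in steps at either age. The largest 16-week clone had 7 cells, 3 of them conventional, with 50 Nr4a UMIs, 29 of them in 1 conventional cell. All conventional cells of 16-week clones with 5 or more cells had 48 Nr4a UMIs, so this cell held most of them. At 8 weeks the largest clone had 14 cells with 10 Nr4a UMIs in 4 cells. Clones of 6, 5 and 5 cells, all of them conventional, had 0 Nr4a UMIs, in 38238, 11922 and 26873 UMIs, which allows up to 96.5, 309 and 137 CPM by exact 95% limits.

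In Cd8-gated cells at 8 weeks, 25 expanded cells of 11 clones had 159 CPM of the Nr4a family and 184 single cells had 151 CPM (0.09, -0.56 to 0.65), and the Egr family had 98.4 and 71.8 CPM (0.48, -0.39 to 1.23). Both ratios turned negative without the highest cell of each group, at -0.58 and -0.76. Of 4 measured members 1 (Egr2, on 8 and 18 UMIs) was past 1.5-fold higher, where 22.1% of 5283 genes were higher and 14.6% lower. The other expanded groups were too small to compare: 9 Cd8-gated cells at 16 weeks had 145 CPM of the Nr4a family, and 6 and 13 Foxp3-positive cells at 16 and 8 weeks had 259 and 291 CPM.

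The AP-1 list, unlike the members, had medians below 0 in expanded clones. In conventional cells 2 of 12 genes were past 1.5-fold higher and 1 lower at 16 weeks (median -0.36), and 0 higher and 5 lower of 11 at 8 weeks (median -0.35). Fos had 158 CPM in expanded and 365 CPM in single cells at 8 weeks, and Jun 248 and 428 CPM. In Cd8-gated cells at 8 weeks 0 of 11 were higher and 6 lower (median -0.71). Receptor-induced regulators and surface proteins were higher in expanded conventional cells, with 18 of 33 past 1.5-fold higher and 2 lower at 16 weeks (median 0.73) and 19 and 2 of 34 at 8 weeks (median 0.70). Over all genes these medians were 0.09 and 0.05. Of all genes 17.8% were past 1.5-fold higher and 15% lower at 16 weeks, and 12.6% and 10.2% at 8 weeks. In Cd8-gated cells at 8 weeks 13 of 30 were higher and 4 lower, where 22.1% and 14.6% of all genes were. Ccl4, a chemokine released after receptor engagement, had 1302 CPM in expanded and 147 CPM in single conventional cells at 16 weeks, and 412 and 23.5 CPM at 8 weeks. Ccl5, the chemokine that was highest in Cd8-gated cells, had opposite signs at the 2 ages. It had 2900 CPM in expanded and 526 CPM in single conventional cells at 16 weeks, and 240 and 356 CPM at 8 weeks. Nrgn, a calmodulin-binding protein, had 48.6 and 10.9 CPM at 8 weeks. The brakes were split at both ages, with 6 of 28 higher and 6 lower, among them Dusp4 with 71.5 CPM in expanded and 16.7 CPM in single cells at 16 weeks, and Pik3ip1, an inhibitor of PI3 kinase, with 3.11 and 37.1 CPM. Of the glucocorticoid list, 0 of 6 genes were higher and 2 lower at 16 weeks, and 0 and 3 of 6 at 8 weeks. Tsc22d3, a gene induced by glucocorticoids, was lower in expanded conventional cells at both ages, with 43.5 against 180 CPM at 16 weeks and 60.7 against 182 CPM at 8 weeks. Heat shock genes had 1 of 14 higher and 1 lower at 16 weeks, and 0 and 4 of 14 at 8 weeks. Acinar RNA was 109 against 112 CPM at 16 weeks and 22.9 against 90.7 CPM at 8 weeks in expanded and single conventional cells.

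Most T cells with any of the 6 RNAs had only 1 of them, but some pairs were seen in the same cell more often than in cells without the partner. In thinned T cells Nr4a1 was seen in 17 of 33 cells with Nr4a3 at 16 weeks (51.5%), against 13.05% of cells without it, and in 13 of 23 at 8 weeks (56.5%), against 10.4%. Egr1 was seen in 25.0% of cells with Egr2 and 6.96% of those without at 16 weeks, and in 30.0% and 7.13% at 8 weeks. Across families, Nr4a1 was seen in 31.5% of cells with Egr1 and 12.4% of those without at 16 weeks, and in 22.7% and 10.1% at 8 weeks. Cells with Nr4a2 had Nr4a1 in 23.0% and 25.4% of cases at 16 and 8 weeks, against 13.4% and 10.5% of cells without Nr4a2. Nr4a1 was seen in 27.5% of cells with Egr2 and 13.4% of those without at 16 weeks. At 8 weeks Nr4a1 was seen in 16 of 40 cells with Egr2, against 10.3% of those without. Egr1 was seen in 24.2% of cells with Nr4a3 and 7.04% of those without at 16 weeks, and in 17.4% and 7.54% at 8 weeks. The difference was not alike at both ages for every pair. Nr4a3 was seen in 6 of 74 cells with Nr4a2 at 16 weeks (8.11%), against 1.60% of those without. At 8 weeks it was seen in 1 of 59 (1.69%), against 1.37%. Within conventional cells Egr1 was seen in 15.2% of cells with Nr4a1 and 6.27% of those without at 16 weeks. At 8 weeks these shares were 5.88% and 5.99%. Most T cells had none of the 6 (76.5% and 79.2%), 18.4% and 16.4% had exactly 1, and 3 cells at 16 weeks and 1 at 8 weeks had 4 or more. All these cells came from the same library at each age.

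Among the members, Pearson's r across T cells was highest for Egr1 with Egr2 (0.28 at both ages), for Nr4a1 with Nr4a3 (0.28 at both) and for Nr4a1 with Egr1 (0.28 and 0.26 at 16 and 8 weeks). The genes whose levels were most like the sum of the members over 1913 and 1849 T cells, among 6101 genes, were Tagap, Rilpl2, Rgs16, Ctla4, Nfkbid, Bcl2a1b, Srgn, Junb, Ccl4 and Nfkbia, by the lower r of the ages, which ran from 0.29 for Tagap to 0.23 for Nfkbia. Bcl2a1b has near-identical copies, so its counts are uncertain. These correlations are weak and are given as descriptions over cells that share a library. The sum of the members itself had an r of 0.15 and 0.17 with the log of the cell's total UMIs at 16 and 8 weeks.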

How the data were processed

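UMI counts per gene and barcode, deposited by the authors as whole numbers and not normalized, were used with the deposited contig tables of the receptor libraries. Per the file headers the matrices have format version 2 and software version 3.0.1, and the submitters' processing notes name build mm10 and Seurat. The aligner, the annotation and how barcodes were filtered were not given in the sources used here. The members, lists and rules were chosen with earlier results of these data known.

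Barcodes needed at least 500 genes and at most 10% mitochondrial UMIs (1934 at 16 weeks, 1875 at 8 weeks). Another 21 and 26 were left out as lacking T cell markers, having 2 or more UMIs of B cell genes, or having over 1% acinar UMIs. Trac, Trbc1, Trbc2 and Ighm were not used here. Cd4-gated cells had 1 or more Cd4 UMIs and none of Cd8a or Cd8b1, and Cd8-gated cells the reverse. No doublet caller was run. Cells with 2 or more productive beta chains were kept (232, or 14.3% of those with any, at 16 weeks, and 198, or 12.6%, at 8 weeks). Receptor and RNA cells were joined by barcode, with the alpha and beta chain of the most UMIs.

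UMIs were summed per class and divided by the class total (CPM), and 95% Poisson intervals are exact. For log2 ratios 0.5 UMIs were added to both sums, and their intervals are exact conditional ones. Shares were taken in cells thinned to 1700 UMIs, with Clopper-Pearson intervals, and differences have Newcombe intervals. Intervals cover counting error only. Genes past 1.5-fold were counted among those with 20 or more UMIs in the 2 groups. Named genes were all members and, from each list and comparison, up to 3 genes with the largest ratio past 1.5-fold, of which a selection is printed. Genes alike were ranked by Pearson's r of log(1 + UMIs per 10000) among genes seen in 5% or more of T cells. Coordinates are from GENCODE M21 (GRCm38), and promoters from RefSeq windows, read for 4 of 6 members. Windows on chromosome 18, where Egr1 lies, were not read, and none was held for Egr3. Python 3.11.15, numpy 2.4.6, pandas 2.3.3, scipy 1.17.1 and matplotlib 3.10.9 were used. The scripts were tested on simulated data.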

Additional observations from a re-analysis of the deposited data

Results flagged for a closer look

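The ratio of the 16-week over the 8-week level had opposite signs in Foxp3-positive and conventional Cd4-gated cells. For the Nr4a family the log2 ratio was -0.65 in Foxp3-positive cells and 0.45 in conventional cells. For Nr4a1 it was -0.75 in Foxp3-positive cells and 0.42 in conventional cells. At 8 weeks 6 of 115 Foxp3-positive cells carried 52.9% of the Nr4a1 UMIs of that class. At equal depth the share of Foxp3-positive cells with Nr4a1 did not follow the level. With 1 library per age the difference between these ratios was not tested.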

How the results depend on the processing

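Values are log2 ratios unless stated, and where a value moved the cause was not tested. Of 168 alternatives of the family ratios, 143 moved within the counting interval, 25 beyond it, and 152 kept the sign. None of the sign changes was in a ratio whose own interval lay apart from 0. Of 400 alternatives for the members, 368 kept the sign, and of the ratios with an interval apart from 0 only Nr4a1 in Cd8-gated over conventional cells at 16 weeks changed it, to 0.014 with equal weight for every cell. The Nr4a ratio between the ages in conventional cells stayed within 0.27 to 0.50. No paired analysis was possible because each age had 1 library and no test was made. Depth left Egr3, with 5 and 9 UMIs at 16 and 8 weeks, too low to compare.

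With equal weight for every cell, the Nr4a ratio was -0.35 between the ages in Foxp3-positive and 0.70 in Cd8-gated cells, 0.24 and -0.16 in Cd8-gated over conventional cells at 16 and 8 weeks, 1.17 in Foxp3-positive over conventional cells at 8 weeks, and 1.34 in expanded over single Cd8-gated cells at 8 weeks. The Egr ratio in expanded over single conventional cells at 16 weeks was 1.86. Without cells with 2 or more beta chains, the Nr4a ratio was -1.02 between the ages in Foxp3-positive cells, 0.20 in Cd8-gated over conventional cells at 16 weeks and 0.050 in Foxp3-positive over conventional cells at 16 weeks. The Egr ratio was -0.34 in Foxp3-positive over conventional cells at 8 weeks and 1.72 in expanded conventional cells at 16 weeks. With a gate of 2 UMIs, Cd8-gated over conventional cells at 16 weeks had -0.33 (Nr4a) and -0.98 (Egr). With Ikzf2- or Il2ra-positive cells removed from the conventional class, the Nr4a ratio at 16 and 8 weeks was 0.24 and 0.55 in Cd8-gated and 0.69 and 1.82 in Foxp3-positive over conventional cells.

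Expanded conventional cells at 16 weeks had ratios of 0.67 (Nr4a) and 1.71 (Egr) with the deposited clonotype identifier, and 0.71 (Nr4a) without the largest clone. With clones of 3 or more cells, the 8-week ratios were -0.073 (Nr4a, conventional) and -1.16 (Egr, Cd8-gated), and without the highest cell the Cd8-gated ratios were -0.58 (Nr4a) and -0.76 (Egr). Without thinning, the share of Foxp3-positive cells with any member exceeded that of conventional cells by 29.6 points at 16 weeks and 25.5 points at 8 weeks.

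Genes past 1.5-fold with 1 or more UMIs, against 20 or more, numbered 4782 against 1290 (Foxp3-positive), 4319 against 1158 (Cd8-gated) and 4018 against 1168 (conventional) between the ages. In Cd8-gated over conventional cells they were 4120 against 1648 at 16 weeks and 4228 against 1712 at 8 weeks, and in Foxp3-positive over conventional cells 4539 against 2025 and 4251 against 1995. In expanded over single cells they were 6015 against 2403 (conventional, 16 weeks), 4476 against 1750 (conventional, 8 weeks) and 6122 against 1936 (Cd8-gated, 8 weeks).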
